A study of Mus musculus with 14 samples.

Results

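Chitinase-like and resistin-like proteins are secreted by macrophages and epithelia in type 2 immune responses, and 8 of their genes were followed here across 4 states of the mouse peritoneal macrophage: Chil3, Chil4, Chil1 and Chia1 of the chitinase family, and Retnla, Retnlb, Retnlg and Retn of the resistin family. The members were chosen by gene symbol, among 20660 gene symbols on the array, and all 8 were among the 20342 genes kept for testing. RNA came from cells of C57BL/6 mice that had been sorted as positive for both CD11b and F4/80. The groups were Thio+IL-4c (4 arrays), mice injected in the peritoneum with 2 ml of 4% thioglycollate medium in combination with IL-4c; Thio (3 arrays), the same thioglycollate alone; IL-4c (4 arrays), 5 μg of IL-4 with 25 μg of the anti-IL-4 antibody 11B11, which prolongs the cytokine's activity in the animal; and PBS (3 arrays), the vehicle. Thioglycollate irritates the peritoneum and recruits monocytes from the blood, and the study calls these elicited cells, as opposed to the resident macrophages of mice given IL-4c or PBS only. The time between injection and harvest, and the age and sex of the mice, are not given in the sources used here. Whether each replicate was a separate animal is not in the labels, so the p-values speak of the spread between arrays, which may be technical.

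The chitinase-like proteins share the fold of the glycoside hydrolase 18 family. Chia1, acidic chitinase, cleaves chitin, while Chil3 (Ym1), Chil4 (Ym2) and Chil1 (the mouse counterpart of human YKL-40) have lost the catalytic activity. The resistin-like proteins are small cysteine-rich hormones: Retnla encodes RELMα (FIZZ1), an abundant product of IL-4-treated mouse macrophages; Retnlb encodes RELMβ, best known from intestinal goblet cells; Retnlg encodes RELMγ, found in bone marrow and neutrophils; and Retn encodes resistin, which in mice is made mainly by adipocytes. IL-4 reaches such genes through the IL-4 receptor and the transcription factor STAT6, which binds palindromes of TTC and GAA around a short spacer, often beside C/EBP sites.

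In the mouse assembly GRCm38.p6, Chia1 (chr3:106113382-106132118), Chil3 (chr3:106147554-106167564) and Chil4 (chr3:106201491-106219479) lie in 1 cluster of chromosome 3 together with their relatives Ovgp1, Chil5 and Chil6, and Retnlb (chr16:48816856-48818892), Retnla (chr16:48842609-48844461) and Retnlg (chr16:48872608-48874498) lie side by side on chromosome 16. Chil1 is on chromosome 1 and Retn on chromosome 8. The 250 bases before the gene start, from RefSeq on GRCm38.p6, were found for 7 of the 8 genes, without Retnlb. Those of the neighbouring pairs Chil3 and Chil4 (both minus strand, chr3:106167565-106167814 and chr3:106219480-106219729) and Retnla and Retnlg (both plus strand, chr16:48842359-48842608 and chr16:48872358-48872607) are printed because these genes rose with IL-4c and their windows hold the palindromes; capitals mark matches to the 4 motifs described after them.
Chil3: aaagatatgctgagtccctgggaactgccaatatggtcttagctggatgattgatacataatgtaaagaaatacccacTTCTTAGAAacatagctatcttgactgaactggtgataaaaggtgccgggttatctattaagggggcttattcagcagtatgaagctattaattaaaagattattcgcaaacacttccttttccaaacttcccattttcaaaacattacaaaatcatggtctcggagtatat
Chil4: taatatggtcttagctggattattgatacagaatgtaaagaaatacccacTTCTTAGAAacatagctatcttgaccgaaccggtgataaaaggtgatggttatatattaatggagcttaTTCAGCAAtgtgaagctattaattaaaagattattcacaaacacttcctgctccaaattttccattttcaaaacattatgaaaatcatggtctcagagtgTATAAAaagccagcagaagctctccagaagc
Retnla: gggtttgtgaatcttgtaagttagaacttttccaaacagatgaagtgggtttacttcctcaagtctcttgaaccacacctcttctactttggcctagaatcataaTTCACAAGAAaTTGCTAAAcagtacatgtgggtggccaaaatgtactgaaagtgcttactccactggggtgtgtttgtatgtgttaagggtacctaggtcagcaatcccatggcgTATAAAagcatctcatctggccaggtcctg
Retnlg: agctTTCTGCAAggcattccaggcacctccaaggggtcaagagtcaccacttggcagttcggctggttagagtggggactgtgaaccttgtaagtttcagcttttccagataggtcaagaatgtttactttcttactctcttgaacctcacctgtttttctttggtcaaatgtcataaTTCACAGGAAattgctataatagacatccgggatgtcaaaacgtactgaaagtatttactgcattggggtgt

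The motifs searched, on both strands, were TTCNNNNGAA (the STAT6-type palindrome with a spacer of 4), TTCNNNGAA (spacer of 3), TTGCNNAA (C/EBP-type) and TATAAA (the TATA box). In 32851 promoter windows of the same length they matched in 5.85%, 7.02%, 9.56% and 12.4% of windows. Retnla and Retnlg each held the palindrome with a spacer of 4, at -145 to -136 in Retnla and at -72 to -63 in Retnlg, counted in bases before the start. Chil3 and Chil4 each held the one with a spacer of 3, as the same letters TTCTTAGAA, at -172 to -164 in Chil3 and at -200 to -192 in Chil4. C/EBP-type matches stood in Chil4, Retnla and Retnlg, a TATA box in Chil4, Chia1 and Retnla, and none of the 4 motifs in the windows of Chil1 and Retn. No match overlapped another. The windows of Chil3 and Chil4 were identical at 201 of 221 aligned bases (90.95%), and those of Retnla and Retnlg at 138 of 175 (78.9%). Positions depend on where the annotated start lies. By their letters, the Chil3 window ends where Chil4 has its TATA box, and the Retnlg window ends before the stretch that holds it in Retnla. A TATA box missing from the Chil3 or Retnlg window is therefore not shown to be missing from the gene. A match describes letters, and binding was not measured.

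**Figure D1:**
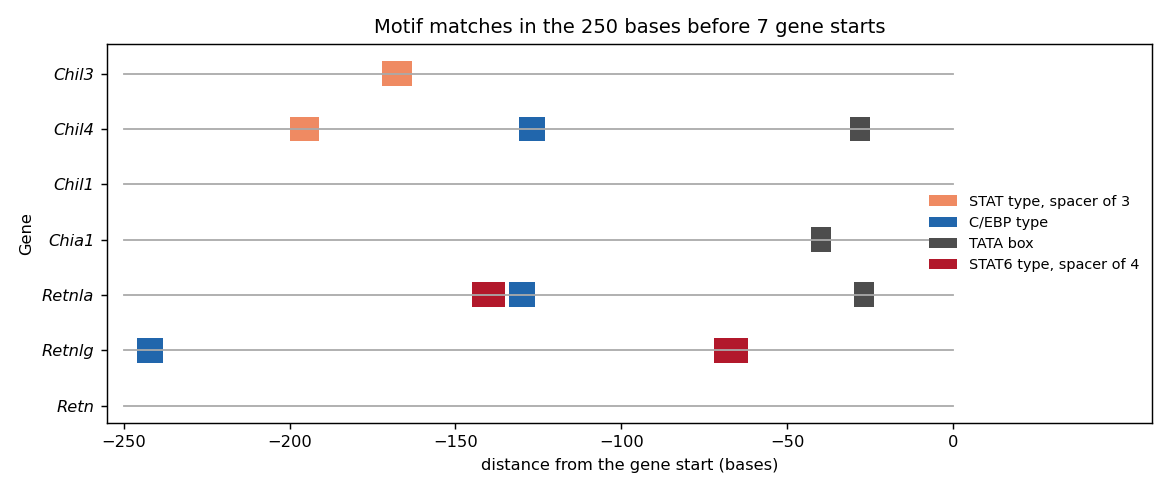
Positions of motif matches in the 250 bases before the starts of 7 genes (horizontal axis, distance from the start in bases; 1 line per gene). Retnla and Retnlg carry the TTC and GAA palindrome with 4 bases between, Chil3 and Chil4 the one with 3, and Chil1 and Retn carry no match.

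Each value below is a level, the log2 of a probe's processed signal after its array's 75th percentile was subtracted on that scale, so that a level of 0 is the brightness at the 75th percentile of the array. Levels of different probes are not set against each other, and in sorted bulk RNA fewer cells of a type and less RNA per cell cannot be told apart. The 75th percentile itself was 1271 to 3866 between arrays and 79.1% to 95.6% of probes were well above background; PBS arrays were dimmer than IL-4c arrays. Of 7 macrophage and sort markers, 6 were measured and 5 or 6 of them were well above background on every array. The array Thio 1 stood apart: it correlated across genes at 0.849 to 0.866 with the other Thio arrays and at 0.918 to 0.931 with the PBS arrays. In resident peritoneal macrophage markers it stood with the Thio arrays. Their level summed on the linear scale was 60.85 on Thio 1, 59.5 and 63.3 on Thio 2 and Thio 3, and 850 to 935 on PBS arrays. Thio 1 also lay on slide 1 with all IL-4c and PBS arrays, while Thio 2, Thio 3 and all Thio+IL-4c arrays lay on slide 2, and each slide was 1 scan. IL-4c versus PBS can therefore be read within a slide. Thio+IL-4c versus Thio can be read so only without Thio 1, which the main fit includes. The main fit has no term for slide, so slide enters Thio versus PBS and Thio+IL-4c versus IL-4c. With slide as a block, those comparisons rest on Thio 1 to bridge slides. Thio versus PBS differences of the 8 genes are given with and without Thio 1, and for other genes and lists the value without it is given where a call changes.

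The comparison of IL-4c with PBS asks what IL-4 does to macrophages already present in the cavity. Chil3, Chil4, Retnla, Retnlb, Retnlg and Retn rose, none of the 8 genes fell, and Chil1 and Chia1 were not called (limma, adjusted p under 0.05 over all genes). In this comparison 32.2% of the 20342 genes were called, 16.8% as higher and 15.4% as lower. The median difference of the 8 genes was 2.27 on the log2 scale, beside -0.01 over all genes. It lies between the differences of Retn, which fell on its dimmer probe, and Retnlb, whose call was lost in the authors' deposited table. The arrays of the groups did not overlap for 7 of the 8, all but Chia1, beside 53.2% of all genes. No PBS array had Chil1 or Retnlb well above background. Retnlb was kept for testing only through arrays of IL-4c-treated mice, so its separation is no independent support.

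Thio+IL-4c set against Thio asks the same of elicited macrophages. The same 6 genes rose and none fell, with 39.3% of all genes called, 16.3% as higher and 23.0% as lower, and a median difference of 2.999 over the 8 genes beside 0.04 over all. Retn was called on its brighter probe only. Arrays did not overlap for the 6 genes, beside 44.5% of all genes, and no Thio array had Retnlb well above background. In Thio versus PBS, which sets elicited against resident macrophages without IL-4c, Chil3, Chil4 and Chia1 rose and Retnla and Retn fell, where 44.4% of all genes were called, 20.2% as higher and 24.3% as lower. Arrays did not overlap for those 5, beside 42.6% of all genes. In Thio+IL-4c versus IL-4c, Chia1 and Retnlg were called as higher and Chil1 as lower, 3 of 8 genes where 70.0% of all genes were called, 27.9% as higher and 42.1% as lower. Arrays did not overlap for 2 of the 8, Chil1 and Chia1, beside 72.6% of all genes. The differences of these 4 comparisons share PBS, Thio and IL-4c arrays and are therefore not independent of each other.

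**Figure D2:**
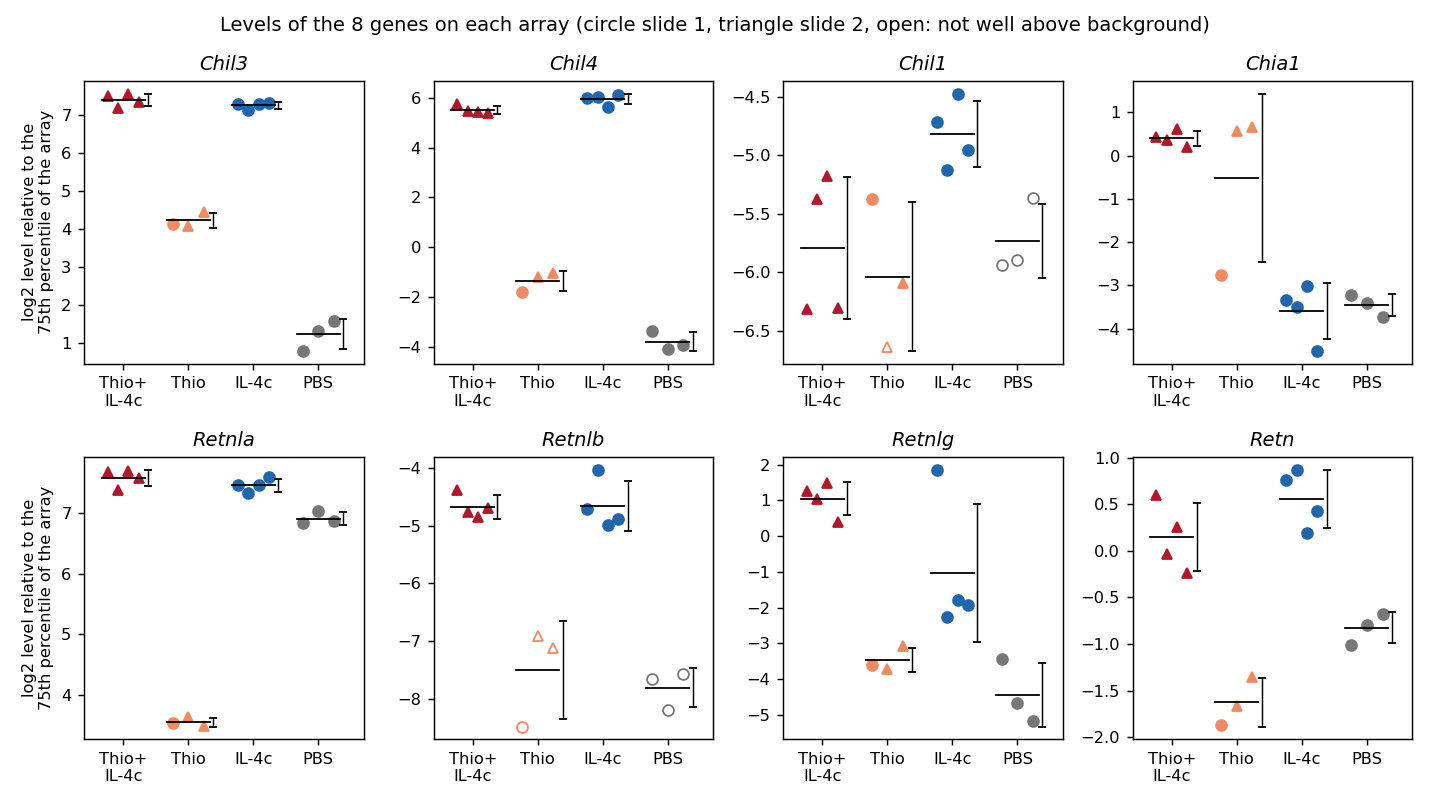
Level of each gene (vertical axis, log2 relative to the 75th percentile of the array) on each of the 14 arrays, by group, with the mean (line) and SD (bar). Chil3, Chil4 and Retnla are high and overlap in Thio+IL-4c and IL-4c, while Thio and PBS lie apart, and Chia1 splits by slide.

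**Figure D3:**
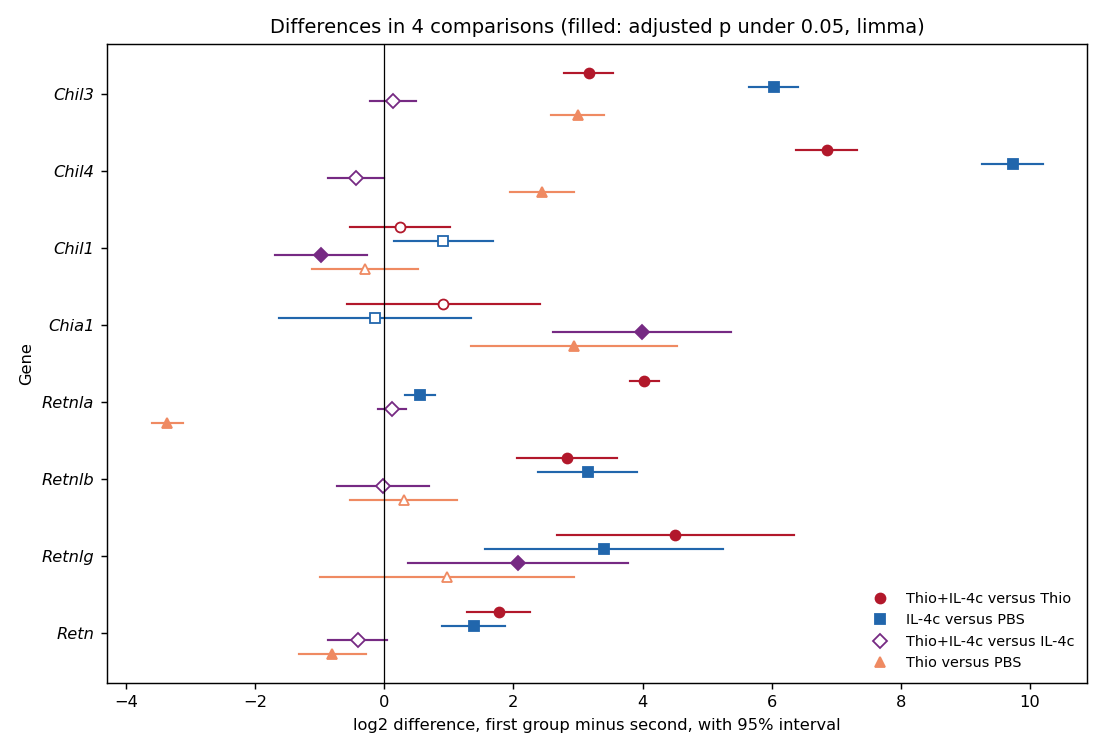
Log2 differences of the 8 genes in 4 comparisons (horizontal axis, with the 95% interval of the fit). Chil4 in IL-4c versus PBS lies at 9.73 and Retnla in Thio versus PBS at -3.36.

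Chil3, a lectin that macrophages secrete and that can crystallise in the tissue, was at 7.49, 7.18, 7.55 and 7.34 on the Thio+IL-4c arrays, at 4.14, 4.08 and 4.44 on the Thio arrays, at 7.29, 7.13, 7.29 and 7.32 on the IL-4c arrays, and at 0.79, 1.32 and 1.58 on the PBS arrays. All 8 arrays of IL-4c-treated mice were high, the Thio arrays lay in between, and the PBS arrays were low, with no overlap between these 3 sets. Chil3 rose by 6.03 in IL-4c versus PBS (SE 0.17, a 65.3-fold difference, limma adjusted p = 1.64e-09) and by 3.17 in Thio+IL-4c versus Thio (SE 0.17, 8.98-fold, adjusted p = 9.22e-08). It also rose without IL-4, by 2.99 in Thio versus PBS (SE 0.19, limma adjusted p = 1.89e-07). Without Thio 1 that last difference was 3.03. Between Thio+IL-4c and IL-4c the arrays overlapped and the difference was 0.13, with a 95% interval of -0.22 to 0.48.

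Chil4, the close paralog of Chil3, was at 5.76, 5.45, 5.44 and 5.37 on the Thio+IL-4c arrays, at -1.79, -1.20 and -1.05 on the Thio arrays, at 5.99, 6.02, 5.64 and 6.12 on the IL-4c arrays and at -3.37, -4.09 and -3.91 on the PBS arrays. The order of the groups was that of Chil3 except at the top, where the IL-4c mean was above the Thio+IL-4c mean and the arrays overlapped. Its rise in IL-4c versus PBS, 9.73 (SE 0.21, limma adjusted p = 2.77e-10), was an 849-fold difference. That rise was 9.04 in the authors' deposited table and 9.08 with normexp scaled on the 75th percentile, so the fold depends on the processing. In Thio+IL-4c versus Thio Chil4 rose by 6.85 (SE 0.21, a 116-fold difference) and in Thio versus PBS by 2.44 (SE 0.23, limma adjusted p = 6.18e-06). Without Thio 1 the last difference was 2.67, and in the authors' deposited table it was 1.69 (limma adjusted p = 6.64e-06). The difference between Thio+IL-4c and IL-4c was -0.44 (SE 0.20, limma adjusted p = 0.0689). It passed the threshold in 6 of 12 other settings: in the authors' deposited table (-0.78, limma adjusted p = 0.000424), with slide as a block (-1.10, adjusted p = 0.0303) or as a random block (-0.98), with array weights, with only the groups compared and with normexp scaled on the 75th percentile. It also passed without PBS 1, IL-4c 3 or Thio 1 (limma adjusted p 0.0323 to 0.0462). Chil3 and Chil4 are near-identical neighbours, the probe sequences are not used here, and how much of each signal comes from the other gene was not tested.

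The IL-4c effect on Chil3 and Chil4 was smaller in elicited than in resident cells. The interaction (Thio+IL-4c minus Thio, less IL-4c minus PBS) was -2.86 for Chil3 (SE 0.25, limma adjusted p = 6.66e-06) and -2.88 for Chil4 (SE 0.30, adjusted p = 2.92e-05), in a comparison where 32.5% of all genes were called, 12.8% as higher and 19.8% as lower. With slide as a block, which leaves Thio 1 out of this contrast, the values were -2.90 and -3.10. Of the 2 groups without IL-4c, whose arrays also enter the interaction, Thio had the higher levels. Chil3 averaged 4.22 ± 0.20 in Thio and 1.23 ± 0.40 in PBS (SD, n = 3 each), and Chil4 -1.35 ± 0.39 in Thio and -3.79 ± 0.37 in PBS. These are parallel groups and not the state before IL-4c, and a relation of their levels to the interaction was not tested.

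The probes of the top genes were also among the brightest spots of the IL-4c-treated arrays. Chil3 reached 44.0% to 50.5% of the scanner's saturation value in Thio+IL-4c and 62.8% to 69.4% in IL-4c, against 5.18% to 9.99% in Thio and 0.402% to 0.579% in PBS. Retnla reached 52.0% to 55.8% in Thio+IL-4c and 73.1% to 79.8% in IL-4c, against 3.43% to 5.53% in Thio and 19.1% to 30.4% in PBS. No spot was marked saturated, and the brightest spot of an array stood at 56.1% to 81.8% of that value. On the arrays of IL-4c-treated mice, Retnla ranked between 2 and 5 and Chil3 between 8 and 27 of 55681 probes by brightness. Chil4 was at 11.2% to 14.3% in Thio+IL-4c and 20.6% to 32.1% in IL-4c. Whether brightness near the top of the range narrowed the differences of Chil3 and Retnla was not tested.

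**Figure D4:**
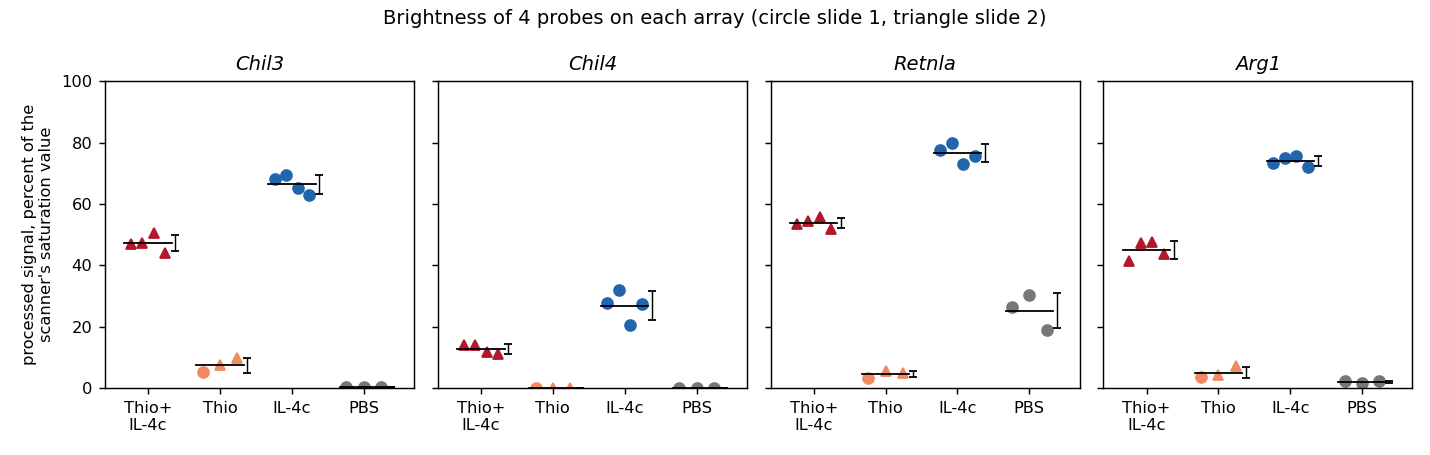
Processed signal as a percent of the scanner's saturation value (vertical axis) for the probes of Chil3, Chil4, Retnla and Arg1 on each array, with group mean (line) and SD (bar). Chil3, Retnla and Arg1 stand at 41.6% or more on all arrays of IL-4c-treated mice, and Chil4 stays at 32.1% or less.

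Chil1, whose human counterpart YKL-40 is a serum marker of inflammation, was dim throughout. Its levels were -6.31, -5.37, -5.18 and -6.31 on the Thio+IL-4c arrays, -5.37, -6.64 and -6.09 on the Thio arrays, -4.71, -5.12, -4.47 and -4.96 on the IL-4c arrays and -5.93, -5.90 and -5.37 on the PBS arrays. No PBS array had this probe well above background, nor had Thio 2, and the IL-4c arrays were the highest, without overlap with the PBS arrays. The IL-4c difference to PBS was 0.92 (SE 0.35, limma adjusted p = 0.0694). With dim PBS levels raised to the background floor of their arrays, it was 1.85-fold, an estimate and no lower limit. The difference between IL-4c and PBS was called in 5 of 12 other settings and without Thio 1 (limma adjusted p = 0.0340), but these are not all distinct. Only the groups compared and slide 1 alone gave the same result, as did slide as a block and leaving out Thio 1. The difference was -0.17 (limma adjusted p = 0.543) in the authors' deposited table of processed values. In Thio+IL-4c versus IL-4c Chil1 fell by 0.98 (SE 0.33, limma adjusted p = 0.0186), and that call was lost in the authors' deposited table (-0.29, adjusted p = 0.155), with normexp scaled on the 75th percentile (-0.19), without IL-4c 3, Thio+IL-4c 1 or Thio+IL-4c 4 (adjusted p 0.0525 to 0.0575) and with slide as a block (0.02, adjusted p = 0.990) or a random block (-0.17). In Thio versus PBS the difference was -0.30, -0.63 without Thio 1 and 0.36 on slide 1 alone, none of them called. It was called as lower in the authors' deposited table (-0.73, limma adjusted p = 0.0135) and with normexp scaled on the 75th percentile (-0.66, adjusted p = 0.0232).

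Chia1, the acidic chitinase that cleaves chitin, was at 0.43, 0.35, 0.62 and 0.20 on the Thio+IL-4c arrays, at -2.75, 0.56 and 0.65 on the Thio arrays, at -3.34, -3.50, -3.01 and -4.52 on the IL-4c arrays and at -3.23, -3.40 and -3.72 on the PBS arrays. All 6 arrays of slide 2 were above all 8 arrays of slide 1, and Thio 1, on slide 1, stood with the resident groups. Chia1 was called as higher in Thio versus PBS (2.94, SE 0.73, limma adjusted p = 0.00743) and in Thio+IL-4c versus IL-4c (4.00, SE 0.63, adjusted p = 0.000197). With slide as a block these were 0.70 (adjusted p = 0.288) and 0.64 (adjusted p = 0.442), and without Thio 1 the first was 4.06 (limma adjusted p = 2.9e-06). The first was also not called with only the groups compared (limma adjusted p = 0.0983). IL-4c differences were not called in either kind of cell, at -0.14 in IL-4c versus PBS and 0.92 in Thio+IL-4c versus Thio. On slide 2 alone the second of these was -0.20. Over all genes, 16.2% had every slide 2 array above every slide 1 array and 18.1% had the reverse, and slide and elicitation cannot be told apart for Chia1.

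Relatives of the family outside the 8 genes gave a mixed picture. Of 6 listed glycoside hydrolase 18 relatives, 5 were measured, without Chil5: none was called in IL-4c versus PBS, 2 rose in Thio versus PBS, and in Thio+IL-4c versus Thio 1 rose and 2 fell. Without Thio 1, 3 rose and 1 fell in Thio versus PBS, with Ovgp1 added to the rises (3.07, limma adjusted p = 3.04e-06) and Chid1 as the fall (-0.65, adjusted p = 0.00124). Ovgp1, oviductal glycoprotein, followed the slides as Chia1 did, at 0.66 to 0.82 in Thio+IL-4c, -3.31 to 0.71 in Thio, -3.45 to -2.64 in IL-4c and -2.78 to -1.86 in PBS. Chit1, chitotriosidase, the chitinase of human macrophages, averaged -1.92 ± 0.10 in Thio+IL-4c (n = 4), -3.0 ± 1.99 in Thio (n = 3), -3.40 ± 0.16 in IL-4c (n = 4) and -5.44 ± 1.09 in PBS (n = 3, SD throughout), and it too had all slide 2 arrays above slide 1. Chil6, the last gene of the cluster, rose as Chil3 did in Thio versus PBS and went against it with IL-4c in elicited cells: it rose by 1.06 in Thio versus PBS (SE 0.19, limma adjusted p = 0.00109) and fell by 2.20 in Thio+IL-4c versus Thio (SE 0.18, adjusted p = 1.85e-06). Chid1, a lysosomal member, rose by 0.83 and Ctbs, di-N-acetylchitobiase, fell by 0.66 in Thio+IL-4c versus Thio (limma adjusted p = 0.00147 and 0.00744).

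**Figure D5:**
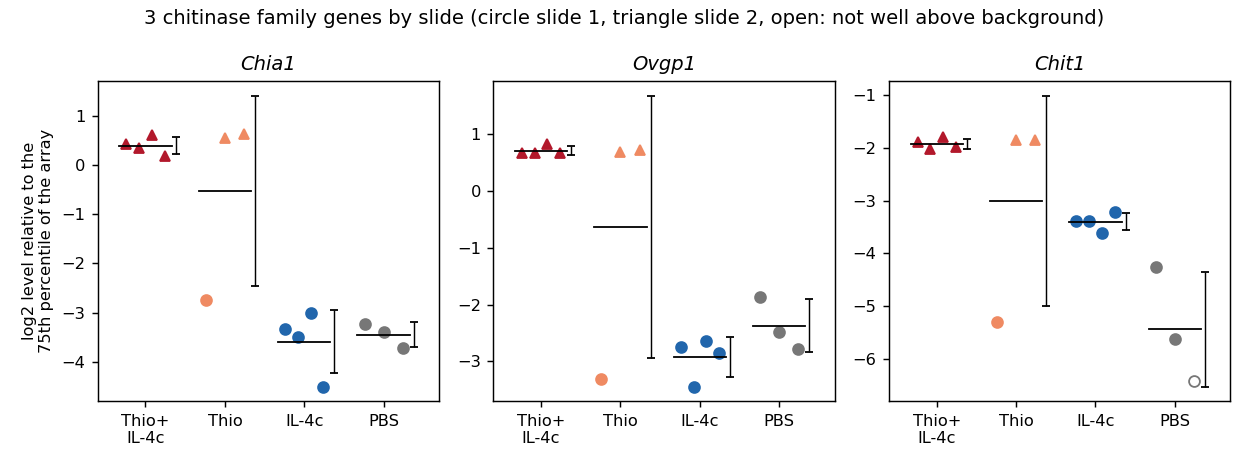
Level (vertical axis, log2 relative to the 75th percentile of the array) of Chia1, Ovgp1 and Chit1 on each array, by group, with mean (line) and SD (bar); circles are slide 1 and triangles slide 2. For each gene, all 6 triangles lie above all 8 circles, Thio 1 included among the circles.

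Retnla, the gene of RELMα, differed from Chil3 in the groups without IL-4c. Its levels were 7.67, 7.39, 7.69 and 7.58 on the Thio+IL-4c arrays, 3.54, 3.63 and 3.48 on the Thio arrays, 7.47, 7.33, 7.46 and 7.59 on the IL-4c arrays and 6.84, 7.03 and 6.87 on the PBS arrays. Resident macrophages without IL-4 were thus high too, and the Thio arrays alone were low. Retnla fell by 3.36 in Thio versus PBS (SE 0.11, a 10.3-fold difference, limma adjusted p = 1.72e-09), and Thio 1 shared the low level of Thio 2 and Thio 3. The difference was -3.35 without Thio 1. It rose by 4.03 in Thio+IL-4c versus Thio (SE 0.10, 16.3-fold, limma adjusted p = 6.12e-10) but by 0.55 in IL-4c versus PBS (SE 0.10, 1.47-fold, adjusted p = 0.00143). The smaller of these differences moved with the scaling, to 1.23 with quantile normalization (limma adjusted p = 9.02e-07), 1.25 with normexp and quantile normalization and 0.90 in the authors' deposited table.

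The interaction of Retnla was 3.48 (SE 0.15, limma adjusted p = 8.05e-08), of the opposite sign to Chil3 and Chil4, and it was 3.47 with slide as a block. Thio+IL-4c and IL-4c overlapped for Retnla, with a difference of 0.12 and a 95% interval of -0.09 to 0.33. The Retnla window carries the palindrome with a spacer of 4 and the Chil3 and Chil4 windows the one with a spacer of 3, and no relation between spacer and response was tested.

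Retnlb was well above background only where IL-4c had been given. Its levels were -4.38, -4.77, -4.85 and -4.70 on the Thio+IL-4c arrays, -8.47, -6.92 and -7.12 on the Thio arrays, -4.72, -4.03, -4.99 and -4.89 on the IL-4c arrays and -7.66, -8.19 and -7.57 on the PBS arrays. The 8 arrays of IL-4c-treated mice stood above the 6 others without overlap. The filter on dim probes kept Retnlb through those 8 arrays alone, so this separation is no independent support. The rise was called in Thio+IL-4c versus Thio (limma adjusted p = 5.1e-05) and in IL-4c versus PBS (adjusted p = 2.69e-05). With dim levels raised to the background floor of their arrays, it was 4.19-fold and 2.79-fold in that order. These are estimates and no lower limits. In the authors' deposited table of processed values, the IL-4c versus PBS difference of Retnlb was 0.11 (limma adjusted p = 0.648), which ends the call. In the same authors' deposited table the Thio+IL-4c versus Thio difference was 0.58 (limma adjusted p = 0.0165), a smaller rise than the one above. With normexp and the 75th percentile the differences were 1.06 in Thio+IL-4c versus Thio and 0.45 in IL-4c versus PBS (limma adjusted p = 0.000159 and 0.0392), so the size of the Retnlb rise rests on the processing. Thio+IL-4c and IL-4c differed by -0.02 (95% interval -0.73 to 0.70), and Retnlb was called as lower there with quantile normalization (-0.76), with normexp and quantile normalization (-0.47) and with slide as a block (-1.47, limma adjusted p = 0.0284). In Thio versus PBS, with both groups below background, the difference of 0.30 was not called, and the settings went opposite ways. It was called as higher without Thio 1 (0.79, limma adjusted p = 0.0274) and with array weights (0.82), and as lower in the authors' deposited table (-0.67, adjusted p = 0.011) and with normexp scaled on the 75th percentile (-0.50, adjusted p = 0.0287).

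Of 8 listed goblet and epithelial markers, 6 were measured, and none was called in IL-4c versus PBS; 1 fell and none rose in Thio+IL-4c versus Thio, and none was called there without Thio 1. Their summed level, on the linear scale and in multiples of the 75th percentile of the array, was 1.07 to 1.48 in Thio+IL-4c, 0.764 to 1.28 in Thio, 0.576 to 0.699 in IL-4c and 0.664 to 0.760 in PBS. On IL-4c arrays 3 to 6 of these markers were well above background, and on PBS arrays 4. The part of these markers in the Retnlb result was not tested.

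Retnlg rose with IL-4c in both kinds of cell, with 1 array far from its group. It was at 1.26, 1.05, 1.48 and 0.41 on the Thio+IL-4c arrays, at -3.59, -3.72 and -3.07 on the Thio arrays, at 1.86, -2.27, -1.78 and -1.93 on the IL-4c arrays and at -3.44, -4.67 and -5.18 on the PBS arrays. IL-4c 1 was the highest array of all, 3.65 above the next IL-4c array, while the other IL-4c arrays lay between PBS and Thio+IL-4c. Retnlg rose by 4.51 in Thio+IL-4c versus Thio (SE 0.84, 22.8-fold, limma adjusted p = 0.00106) and by 3.40 in IL-4c versus PBS (SE 0.84, adjusted p = 0.00767). Without IL-4c 1 the second difference was 2.44 (SE 0.41, limma adjusted p = 0.00107). In Thio versus PBS the groups overlapped, at 0.97 (SE 0.90, limma adjusted p = 0.386), and at 1.03 without Thio 1.

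Thio+IL-4c and IL-4c overlapped for Retnlg through IL-4c 1, and the difference of 2.08 (SE 0.78, limma adjusted p = 0.0316) was 3.04 (SE 0.39, adjusted p = 8.98e-05) without that array. It lost its call without IL-4c 2, 3 or 4 or Thio+IL-4c 1, 2 or 3 (limma adjusted p 0.0580 to 0.0922) and with only the groups compared (0.0664), and slide as a block gave 1.88 (adjusted p = 0.450). The interaction of Retnlg was 1.11 (SE 1.19, limma adjusted p = 0.492), and 2.07 (SE 0.57, adjusted p = 0.0186) without IL-4c 1. On IL-4c 1, 34 of 20290 genes stood at least as far above the other IL-4c arrays as Retnlg did, beside 5, 8 and 2 genes on IL-4c 2, 3 and 4. The gene with the largest such gap was Vmn2r17, a vomeronasal receptor, at 7.01.

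Because Retnlg is known from neutrophils, the neutrophil lists were set beside it. Of 14 neutrophil markers, 13 were measured. In IL-4c versus PBS 1 rose and 6 fell, and in Thio+IL-4c versus Thio 4 rose and 3 fell. Their summed level was 54.4 to 61.3 in Thio+IL-4c, 45.4 to 61.2 in Thio, 102 to 114 in IL-4c and 171 to 187 in PBS. Most of this sum came from the probes of Padi4 and Csf3r, at 33.4 to 43.0 in Thio+IL-4c, 35.9 to 47.6 in Thio, 89.4 to 99.4 in IL-4c and 154.6 to 169.5 in PBS. The other 11 markers summed to 13.4 to 21.0 in Thio+IL-4c, 9.50 to 13.5 in Thio, 12.8 to 15.4 in IL-4c and 16.8 to 17.3 in PBS. S100a8, a calcium-binding protein of the neutrophil cytosol, fell by 3.07 in IL-4c versus PBS (SE 0.31, limma adjusted p = 1.21e-05), and in Thio+IL-4c versus Thio it averaged 0.81 and 1.36 and was not called. Its partner S100a9 rose by 2.83 in Thio+IL-4c versus Thio (SE 0.73, limma adjusted p = 0.00873), as Retnlg did, and was not called in IL-4c versus PBS (-0.32). The part of these markers in the Retnlg result was not tested. On IL-4c 1 the neutrophil sum was 113.6, beside 102.5 to 112.7 on the other IL-4c arrays. The sum over 10 granule markers of neutrophil precursors was 23.4 to 30.2 in Thio+IL-4c, 6.89 to 16.7 in Thio, 15.1 to 17.0 in IL-4c and 8.97 to 11.4 in PBS. It was highest in Thio+IL-4c, as Retnlg was, through Cebpe, which alone was at 13.3 to 19.7 in Thio+IL-4c, 0.560 to 0.787 in Thio, 5.32 to 6.15 in IL-4c and 0.329 to 0.390 in PBS. The other 9 markers summed to 8.97 to 11.1 in Thio+IL-4c, 6.11 to 16.1 in Thio, 9.77 to 11.0 in IL-4c and 8.63 to 11.1 in PBS, with overlap between all groups. In that list Cebpe, a transcription factor of granule genes, rose by 4.56 in Thio+IL-4c versus Thio and by 4.04 in IL-4c versus PBS (limma adjusted p = 3.35e-09 and 8.68e-09).

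Retn had 2 probes, and they disagreed. On the brighter probe its levels were 0.61, -0.03, 0.26 and -0.24 on the Thio+IL-4c arrays, -1.87, -1.66 and -1.35 on the Thio arrays, 0.76, 0.87, 0.19 and 0.43 on the IL-4c arrays and -1.01, -0.79 and -0.68 on the PBS arrays. All 8 arrays of IL-4c-treated mice were above the PBS arrays, and those above the Thio arrays, without overlap. By this probe Retn rose by 1.78 in Thio+IL-4c versus Thio (SE 0.22, limma adjusted p = 5.45e-05) and by 1.39 in IL-4c versus PBS (SE 0.22, adjusted p = 0.000427), and fell by 0.80 in Thio versus PBS (SE 0.24, adjusted p = 0.0188). Without Thio 1 that fall was -0.68 (limma adjusted p = 0.0371). The call in Thio versus PBS was lost without PBS 2, PBS 3 or Thio 2 (limma adjusted p 0.0537 to 0.0637).

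The dimmer Retn probe averaged -4.52 ± 0.14 in Thio+IL-4c (n = 4), -4.86 ± 0.74 in Thio (n = 3), -4.93 ± 0.16 in IL-4c (n = 4) and -3.24 ± 0.13 in PBS (n = 3, SD throughout). It went the opposite way in IL-4c versus PBS, falling by 1.68 (SE 0.26, limma adjusted p = 0.000365), the same way in Thio versus PBS, falling by 1.62 (adjusted p = 0.00077), and was not called in Thio+IL-4c versus Thio (0.35, adjusted p = 0.307). With the mean of both probes, Retn in IL-4c versus PBS was -0.15 (limma adjusted p = 0.671). A direction for Retn with IL-4c in resident cells therefore rests on the choice of probe. So does the call of its interaction. That was 0.39 on the brighter probe (limma adjusted p = 0.366), 2.03 on the dimmer one (adjusted p = 0.00141) and 1.21 with their mean (adjusted p = 0.00638). Among 7 adipocyte markers, Plin1, a lipid droplet coat protein, rose by 3.57 in IL-4c versus PBS (SE 0.42, limma adjusted p = 4.16e-05) and was not called in Thio+IL-4c versus Thio (-0.50). Adipoq, the adipokine adiponectin, rose by 1.80 in Thio+IL-4c versus Thio (limma adjusted p = 0.0450), a call that was lost without Thio 1 (0.92, adjusted p = 0.178). The summed adipocyte level was 4.77 to 5.33 in Thio+IL-4c, 1.44 to 3.48 in Thio, 2.67 to 4.21 in IL-4c and 1.43 to 2.16 in PBS. In IL-4c versus PBS it was higher through Plin1: without Plin1 it was 4.73 to 5.27 in Thio+IL-4c, 1.30 to 3.45 in Thio, 0.969 to 2.01 in IL-4c and 1.34 to 1.95 in PBS, so that IL-4c and PBS overlapped. The part of these markers in the Retn result was not tested.

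Arg1 and Mrc1 are used, like Chil3 and Retnla, to mark alternative activation. Arg1, arginase of the urea cycle, rose by 4.06 in IL-4c versus PBS (SE 0.20, limma adjusted p = 5.61e-08) and by 3.66 in Thio+IL-4c versus Thio (SE 0.20, adjusted p = 9.22e-08), with an interaction of -0.40 (adjusted p = 0.299). Mrc1, the mannose receptor, fell by 0.96 in IL-4c versus PBS (SE 0.16) and rose by 1.54 in Thio+IL-4c versus Thio (SE 0.16, limma adjusted p = 1.49e-05), with an interaction of 2.50 (adjusted p = 1.18e-05). Over 24 measured genes of alternative activation outside the 8, 16 rose and 4 fell in Thio+IL-4c versus Thio (18 and 4 without Thio 1), and 11 rose and 6 fell in IL-4c versus PBS. The interaction was called as higher for 13 and as lower for 4 of them, with a median of 1.67 beside -0.05 over all genes. Ccl24, an eosinophil-attracting chemokine, had an interaction of 10.49 (SE 0.29, limma adjusted p = 2.75e-09) and Ucp1, the uncoupling protein of brown fat, one of -6.67 (SE 0.71, adjusted p = 3.02e-05).

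IL-4 signalling genes and transcription factors were counted from lists. Of 13 IL-4 signalling genes, 2 rose and 1 fell in IL-4c versus PBS, with a median of 0.07, and 3 rose and 2 fell in Thio+IL-4c versus Thio, with a median of -0.15. Cish, a STAT-induced inhibitor of cytokine signalling, rose by 3.12 in IL-4c versus PBS and by 6.69 in Thio+IL-4c versus Thio, an interaction of 3.57 (SE 0.52, limma adjusted p = 0.000291). Stat6 fell by 0.78 in Thio+IL-4c versus Thio (SE 0.13, limma adjusted p = 0.000444). Of 12 transcription factors tied to alternative activation, 7 rose and 3 fell in Thio+IL-4c versus Thio, and 3 rose and 3 fell in IL-4c versus PBS. Irf4 fell by 2.62 in Thio versus PBS (SE 0.13) and rose by 2.91 in Thio+IL-4c versus Thio (SE 0.12), with an interaction of 2.83 (SE 0.17, limma adjusted p = 7.13e-07), the signs that Retnla had. Pparg, the lipid-sensing nuclear receptor, rose by 4.22 in Thio versus PBS (SE 0.27) and fell by 1.66 in Thio+IL-4c versus Thio (SE 0.25, limma adjusted p = 0.000214).

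Reported binding partners of the proteins were all measured, 7 of 7. In Thio versus PBS 4 rose and none fell (1 fell without Thio 1), led by Lgals3 (1.45, SE 0.15, limma adjusted p = 1.42e-05), which encodes galectin-3, reported to bind Chil1. Tlr4, reported as a receptor for resistin, rose by 0.86 in IL-4c versus PBS and by 0.65 in Thio+IL-4c versus Thio (limma adjusted p = 0.000203 and 0.00136). Cap1, also reported to bind human resistin, fell by 0.83 and Tmem219, reported as a partner of Il13ra2 in Chil1 binding, by 0.71 in Thio+IL-4c versus Thio (limma adjusted p = 0.000115 and 8.68e-05).

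Markers of the cells themselves changed along with the 8 genes. Of 12 resident peritoneal macrophage markers, 11 fell and 1 rose in Thio versus PBS, and 6 fell in IL-4c versus PBS. Adgre1, which encodes the sorted antigen F4/80, averaged 3.54 in Thio+IL-4c, 4.73 in Thio, 6.27 in IL-4c and 6.55 in PBS. Ccr2, the chemokine receptor of inflammatory monocytes, one of the monocyte markers, had an interaction of 6.36 (SE 0.37, limma adjusted p = 5.21e-07). Lyz2, the lysozyme of myeloid cells, fell by 7.28 in IL-4c versus PBS (SE 0.23, limma adjusted p = 2.77e-09), where Chil3 and Chil4 rose. The part of these shifts in the values of the 8 genes was not tested.

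Genes were also ranked by how closely their levels followed each member over the 14 arrays, among 13290 genes with a value on every array and an SD of at least 0.5 over them, clone names left out, for the members well above background on at least 10 arrays, which leaves out Retnlb; these are descriptions over arrays of the same 4 groups and 2 slides. Chil3 was followed most closely by Ryr1 (Pearson r = 0.993), the calcium release channel, and closely also by Pfkfb4, Prelid3b and Tnfaip8l1. For Chil4 the first were Anp32e (0.988), Timm8a1, Asap2, Arg1 (0.982) and Lap3, and for Retnla they were Slc13a3 (0.986), Chpf, Irf4 (0.985), Aqp9 and Snhg1. Retnlg had looser company, led by Aen (0.924), Polr2h, Rrs1, Gfra2 and Cavin1. Retn was followed by Chn2 (0.955), Tmem209, Ppargc1b, Slc7a2 and Cdc6, and Chil1 by Sema6b (0.889), Rflnb, Pdzd9, Hpdl and Sult1c1. Chia1 was followed by Qrfp (0.994), Cldn34a, Cyp2c67, Kir3dl1 and Mroh8, and 1253 of all genes tested had an r of 0.95 or more with it.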

How the data were processed

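The members, the gene lists and the naming rule were chosen with earlier results of these data known. Per the labels, RNA was labelled with Cy3 and hybridised 1 sample per array. The authors deposited spot intensity tables, extracted with Agilent Feature Extraction 11.0.1.1 per the file headers (11.5, and limma, per the submitters' processing notes), and a log2 table of their own processed values, whose background correction the sources used here do not name. Here log2 of the processed signal was scaled on the 75th percentile of each array. Control spots (3671 of 62976) and 113 to 165 outlier spots per array were left out. Probes were named by accession in a RefSeq table (GRCm38.p6): 27235 of 55681 probes had 1 symbol and 28446 none. Probes had to be well above background on 3 arrays or more, and the brightest stood for its gene. Each member probe had 1 spot per array.

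limma 3.58.1 (R 4.3.3) fitted 1 mean per group over all 14 arrays, with Benjamini-Hochberg adjustment over 20342 genes and a two-sided threshold of 0.05. The script was tested on simulated data. Named were the 8 members with every probe, the measured glycoside hydrolase 18 relatives, Arg1, Mrc1, from each list at most 2 called rises and 2 called falls per comparison, and the 5 genes most like a member (for Chil3, 1 of them is not reported here). Vmn2r17 was named, and marker sums were split into leading and other genes, after values were seen. The files hold no mean signal, so normexp (offset 50) ran on median signals, an alternative chosen after seeing the data. Other alternatives were quantile normalization, the authors' table, filters, all probes averaged, array weights, only the groups compared, slide or replicate number as a block, and each array left out. Array number limits the precision.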

Additional observations from a re-analysis of the deposited data

Results flagged for a closer look

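The interaction, by how much the IL-4c effect was larger in Thio mice than in PBS mice, was -2.86 for Chil3, -2.88 for Chil4 and 3.48 for Retnla, each called by limma's test of the difference itself. Within the slides the values were -2.90, -3.10 and 3.47. Quantile normalization gave -3.1, -2.62 and 2.87 in that order.

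Among the 16 pairs of a member and a group of 4 arrays, 2 had an array far from the rest by Dixon's criterion, where chance gives about 1 in 20. Retnlg on IL-4c 1 was at 1.86, and its gap to the nearest array was 0.882 of the range of the group, past the 95% critical value. Chil3 on IL-4c 2 was at 7.13, with a gap of 0.830 of a range that itself ran only between 7.13 and 7.32.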

How the results depend on the processing

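Chil3, Chil4 and Retnla kept their direction and call in every comparison but Thio+IL-4c versus IL-4c under every alternative run. Over all members and comparisons, 422 values under alternatives other than leaving out an array kept direction and call, 20 gained and 13 lost a call, and 31 changed sign; with an array left out the numbers were 533, 8, 12 and 7. The cause of these changes was not tested. Some alternatives gave the same result for a comparison, so the counts are not of separate checks. Chil1 and Retnlb have no value where a probe had to be well above background on every array. Low signal limits Chil1 and Retnlb, slide and Thio 1 limit Chia1, and the probe limits Retn.

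The 8 genes gave 5 calls with array weights and 1 with slide as a random block in Thio+IL-4c versus IL-4c, beside 3. All genes called in Thio versus PBS numbered 9041, and 14500 with array weights, 3904 with only the groups compared, 6013 with slide as a block, 5839 with it as a random block and 6227 to 13876 with an array left out, where 13876 is without Thio 1. In Thio+IL-4c versus IL-4c 14245 genes were called, 5437 with slide as a block and 5593 with it as a random block.

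With slide as a block, Chil1 was 0.358 in Thio versus PBS (as on slide 1 alone) and 0.0161 in Thio+IL-4c versus IL-4c, Chia1 was -0.203 in Thio+IL-4c versus Thio (as on slide 2 alone) and -0.0621 in the interaction, and Retnlb was -0.670 in Thio versus PBS (as on slide 1 alone). With slide as a random block, Chil1 was 0.234 and Retnlb -0.487 in Thio versus PBS. Array weights gave Chia1 -0.149 in Thio+IL-4c versus Thio and -0.00235 in the interaction, and Retnlb 0.0309 in Thio+IL-4c versus IL-4c. In the authors' deposited table, Thio+IL-4c versus IL-4c was -0.207 for Chil3 and -0.208 for Retnla, Chil1 was -0.167 in IL-4c versus PBS and 0.435 in the interaction, Retnlb was -0.667 in Thio versus PBS (called as lower) and 0.463 in the interaction, and the interaction of Retn was -0.0651. Normexp with the 75th percentile gave Chil1 -0.140 in IL-4c versus PBS and 0.467 in the interaction, and Retnlb -0.504 in Thio versus PBS (called as lower), 0.108 in Thio+IL-4c versus IL-4c and 0.612 in the interaction. Normexp with quantile normalization gave -0.0186 for Chil1 in Thio+IL-4c versus Thio and -0.0295 for Retnlb in Thio versus PBS. Quantile normalization alone gave Chil1 -0.234 in Thio+IL-4c versus Thio and Retnla -0.0103 in Thio+IL-4c versus IL-4c. The mean of both Retn probes was -0.148 in IL-4c versus PBS.

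With an array left out, the values that changed sign ranged from -0.058 to 0.574 (Chil1, Thio+IL-4c versus Thio), -0.336 to 0.167 (Chia1, IL-4c versus PBS), -0.203 to 1.5 (Chia1, Thio+IL-4c versus Thio), -0.0621 to 1.64 (Chia1, interaction) and -0.127 to 0.192 (Retnlb, Thio+IL-4c versus IL-4c).

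Samples of different groups share replicate numbers in the labels, but 19 pairs with the same number had deviations from their group means that correlated at -0.446 to 0.367, over 0.1 in 4, and 2 of 14 arrays correlated best with their own number, so they share only a number. With the replicate number as a block, the counts of members called were 6, 5, 6, 3 and 3, as without it, and Chia1 was 0.0467 in IL-4c versus PBS.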
